A study of Mus musculus with 40 samples.

Results

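The 9 genes described here encode proteins with which cells take up short-chain fatty acids, burn fatty acids in mitochondria and switch these programs on: the monocarboxylate transporter gene Slc16a1, the carnitine palmitoyltransferase genes Cpt1a and Cpt2, the β-oxidation dehydrogenase genes Acads, Acadm and Hadh, the ketone body enzyme gene Bdh1, and the nuclear receptor genes Pparg and Ppara. They were chosen by symbol, as the rows of these genes among the 45706 genes of the expression tables, and each symbol matched 1 Ensembl gene. The choice was made with earlier results of these data known. RNA had been sequenced from 40 libraries in 10 groups of 4. Epithelial cells (sorted as CD45- EpCAM+) and stromal cells (CD45- EpCAM-) came from colon tumors and from healthy colon, and neutrophils (CD45+ CD11b+ MHCII- Ly6G+ Ly6C-low) and monocytes (CD45+ CD11b+ MHCII- Ly6G- Ly6C-high) came from colon tumors and from the blood of tumor-bearing and of healthy animals. Every tumor-bearing mouse was Cdx2CreERT2 - Apc fl/fl and received 1 intraperitoneal dose of tamoxifen at 25 mg/kg, which turns on a Cre recombinase under the Cdx2 promoter, active in gut epithelium, that deletes the floxed part of Apc in those cells. The labels give their age at that dose as 8 to 10 weeks, whereas the methods of the study give a range that reaches higher. Both alleles of Apc were therefore floxed in all cells of those mice, blood cells included. Healthy mice were C57Bl6 with no transgene and no agent, and no age is given for them, while the labels of the tumor-bearing mice name a C57Bl6/Sv129 background under a number that differs from label to label. Strain, transgene, tamoxifen and tumor cannot be told apart in any comparison of tumor-bearing with healthy mice. By their names, 3 of the 4 libraries of healthy blood monocytes and 1 of the 4 libraries of blood neutrophils of tumor-bearing mice were pooled from 2 animals each. Several animals gave more than 1 library, also to groups compared below. Shared animals link library 4 of healthy epithelium and of healthy stroma, library 1 of tumor and of blood monocytes, and tumor neutrophil library 4 with blood neutrophil library 2. Those shared by tumor epithelium and stroma are given below. Neutrophils and monocytes of the tumor also share animals in libraries 2, 3 and 4. In blood of tumor-bearing mice these cell types do so in libraries 1, 3 and 4, where neutrophil library 3 is a pool. The main fits took all libraries as independent, and the animal was a block only in an alternative for tumor epithelium against stroma.

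Butyrate, a short-chain fatty acid made by gut bacteria, is a main fuel of the epithelial cells of the colon. It enters through monocarboxylate transporters such as the product of Slc16a1 (MCT1), is activated to butyryl-CoA and is oxidized in mitochondria, whereas long-chain fatty acids need the carnitine shuttle, with Cpt1a at the outer and Cpt2 at the inner mitochondrial membrane. Acads and Acadm encode the dehydrogenases that start β-oxidation of short-chain and medium-chain acyl-CoA, Hadh encodes a later dehydrogenase of the same cycle, and Bdh1 interconverts the ketone bodies acetoacetate and β-hydroxybutyrate. Ppara and Pparg are ligand-activated transcription factors that bind DNA together with retinoid X receptors and act on many genes of lipid handling.

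Counts on genes totaled 10717873 to 38002939 per library, and mitochondrially encoded genes took 5.3% to 83.9% of them, with the highest share in library 4 of healthy epithelium. All 9 genes were lowest of the group in that library in RPKM (reads per kilobase of gene model, scaled to library size), and the part of mitochondrial reads in this was not tested. The epithelial comparison is therefore given also as TMM-scaled CPM, counts scaled so that most genes stand level between libraries. Epcam, the antigen of the epithelial gate, averaged 55.9 RPKM in healthy and 50.9 RPKM in tumor epithelium, though 7 of the 10 epithelial markers fell there (edgeR). The neutrophil gene S100a8 averaged 2068 to 7201 RPKM in the 3 neutrophil groups. In tumor neutrophils the median neutrophil marker stood at 17.7%, 80.3%, 180% and 109% of its mean in healthy blood neutrophils, libraries 1 to 4 in order. Fibroblast markers were nearly gone from tumor stroma. There the median fibroblast marker reached 1.2% to 4.1% of its mean level in healthy stroma, and the median epithelial marker reached 93.3%, 48.4%, 20.5% and 12.7% of its level in tumor epithelium in libraries 1 to 4. In tumor neutrophils the epithelial markers stood at 92.7%, 15.1%, 17.7% and 4.6%, and in tumor monocytes at 1.2%, 20.8%, 3.7% and 3.5%. In bulk samples of this kind, fewer cells of a type and less RNA per cell cannot be told apart. Xist, expressed from the inactive X chromosome of females, was at 6.68 to 34.6 RPKM in all 4 libraries of healthy epithelium but at 46.8 RPKM in 1 and at 0.0413 RPKM or less in the other 3 libraries of tumor epithelium, and it was at most 0.0492 RPKM in all tumor neutrophils and tumor monocytes. Apc itself was at 0.343 to 3.34 RPKM in healthy and 5.97 to 6.51 RPKM in tumor epithelium, counted over the whole gene, so that reads from outside the deleted part are included and the level does not check the deletion.

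The genes lie on 7 chromosomes of GRCm38 (mm10): Slc16a1 (ENSMUSG00000032902, chr3:104638668-104658462, plus strand), Hadh (ENSMUSG00000027984, chr3:131233419-131272101, minus strand), Acadm (ENSMUSG00000062908, chr3:153922357-153944632, minus strand), Cpt2 (ENSMUSG00000028607, chr4:107903981-107923610, minus strand), Acads (ENSMUSG00000029545, chr5:115110299-115119346, minus strand), Pparg (ENSMUSG00000000440, chr6:115360951-115490399, plus strand), Ppara (ENSMUSG00000022383, chr15:85734983-85802819, plus strand), Bdh1 (ENSMUSG00000046598, chr16:31422280-31458901, plus strand) and Cpt1a (ENSMUSG00000024900, chr19:3322334-3385733, plus strand). Bdh1 overlaps the antisense gene Gm15743 and Pparg the antisense gene Gm44079, and since the use of strand in counting is not given in the sources used here, reads of these pairs cannot be told apart. Slc16a1 holds the sense intronic genes Gm43581 and Gm43585. Acadm shares 681 bases at 93.5% identity with the processed pseudogene Gm5131, so its reads may be split.

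RefSeq promoter windows on GRCm38.p6, reaching from 250 bases before to 50 bases after a start of transcription, were held for all 9 genes, 12 windows in all, with 3 for Pparg and 2 for Bdh1. They were richer in G and C than the 32851 windows of all genes, with a median of 62.7% against 52.7% and a median of 17 against 7 CpG dinucleotides. The half-site AGGTCA, to which PPARs and other nuclear receptors bind, was searched on both strands and was in the windows of 3 of the 9 genes (Acadm, Cpt1a and 2 of the 3 starts of Pparg), 4 of the 12 windows, against 16.3% of all windows. The full repeat of that half-site with 1 base between (AGGTCANAGGTCA) was in none of the 12 windows and in 0.0396% of all windows. The GC box GGGCGG was in 9 of the 12 windows, of all genes but Acadm, against 35.7% of all windows, and the E-box CACGTG was in the window of Slc16a1 alone, against 7.15% of all windows. No 2 matches overlapped. The windows with a half-site are shown with that of Slc16a1, the gene that passed the test in the most comparisons below. They are chr3:153944594-153944893 for Acadm (minus strand), chr19:3323051-3323350 for Cpt1a, chr6:115360894-115361193 and chr6:115362099-115362398 for Pparg, and chr3:104638414-104638713 for Slc16a1 (all plus strand). Capitals mark the half-site on either strand and, in Slc16a1, the E-box.
Acadm: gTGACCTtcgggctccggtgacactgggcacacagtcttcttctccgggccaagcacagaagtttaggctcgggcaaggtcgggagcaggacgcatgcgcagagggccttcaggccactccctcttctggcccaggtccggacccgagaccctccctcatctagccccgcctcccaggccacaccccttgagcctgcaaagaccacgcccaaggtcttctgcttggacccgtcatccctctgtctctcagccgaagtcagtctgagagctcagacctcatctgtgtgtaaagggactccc
Cpt1a: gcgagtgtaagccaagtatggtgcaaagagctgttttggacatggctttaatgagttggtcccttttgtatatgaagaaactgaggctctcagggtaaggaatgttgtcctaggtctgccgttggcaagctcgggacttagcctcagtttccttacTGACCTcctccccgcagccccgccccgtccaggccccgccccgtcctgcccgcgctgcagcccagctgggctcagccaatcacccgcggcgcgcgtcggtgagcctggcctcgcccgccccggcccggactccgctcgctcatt
Pparg, first start: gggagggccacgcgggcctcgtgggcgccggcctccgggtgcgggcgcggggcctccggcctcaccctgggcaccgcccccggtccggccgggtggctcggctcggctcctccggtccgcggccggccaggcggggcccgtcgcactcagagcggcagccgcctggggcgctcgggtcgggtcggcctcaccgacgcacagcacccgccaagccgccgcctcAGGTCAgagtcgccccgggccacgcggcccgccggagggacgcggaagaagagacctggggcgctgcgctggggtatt
Pparg, second start: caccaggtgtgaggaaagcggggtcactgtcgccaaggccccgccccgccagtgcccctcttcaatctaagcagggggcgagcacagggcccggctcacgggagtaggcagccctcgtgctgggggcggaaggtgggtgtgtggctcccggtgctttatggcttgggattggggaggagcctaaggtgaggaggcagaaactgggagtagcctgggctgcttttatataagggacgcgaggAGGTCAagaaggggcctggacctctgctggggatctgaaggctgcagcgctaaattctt
Slc16a1: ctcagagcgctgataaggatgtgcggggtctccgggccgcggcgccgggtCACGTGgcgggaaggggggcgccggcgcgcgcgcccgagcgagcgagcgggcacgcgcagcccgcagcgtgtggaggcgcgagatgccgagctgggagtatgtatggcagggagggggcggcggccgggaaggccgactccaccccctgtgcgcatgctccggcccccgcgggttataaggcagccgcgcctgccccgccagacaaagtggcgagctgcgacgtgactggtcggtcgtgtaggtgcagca
A match to these letters is a description and says nothing of binding, and the absence of a match concerns this window only.

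On the RPKM scale, 7 of the 9 genes had their highest mean in healthy epithelium, and Acadm and Cpt1a had theirs in healthy blood monocytes. On the TMM-scaled CPM scale all 9 were highest in healthy epithelium. The means of the 9 genes summed to 44.2 RPKM in healthy and 12.9 RPKM in tumor epithelium. Groups next to each other in the order of means overlapped in RPKM in 80 of 81 pairs, the exception being Acads in tumor neutrophils over blood neutrophils of tumor-bearing mice, and in TMM-scaled CPM in 72 of 81 pairs. On that second scale healthy epithelium stood clear of the next group for 6 genes: Acadm, Hadh, Bdh1, Slc16a1, Pparg and Ppara. How often genes in general stood apart was not determined, so these counts are descriptions.

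**Figure D1:**
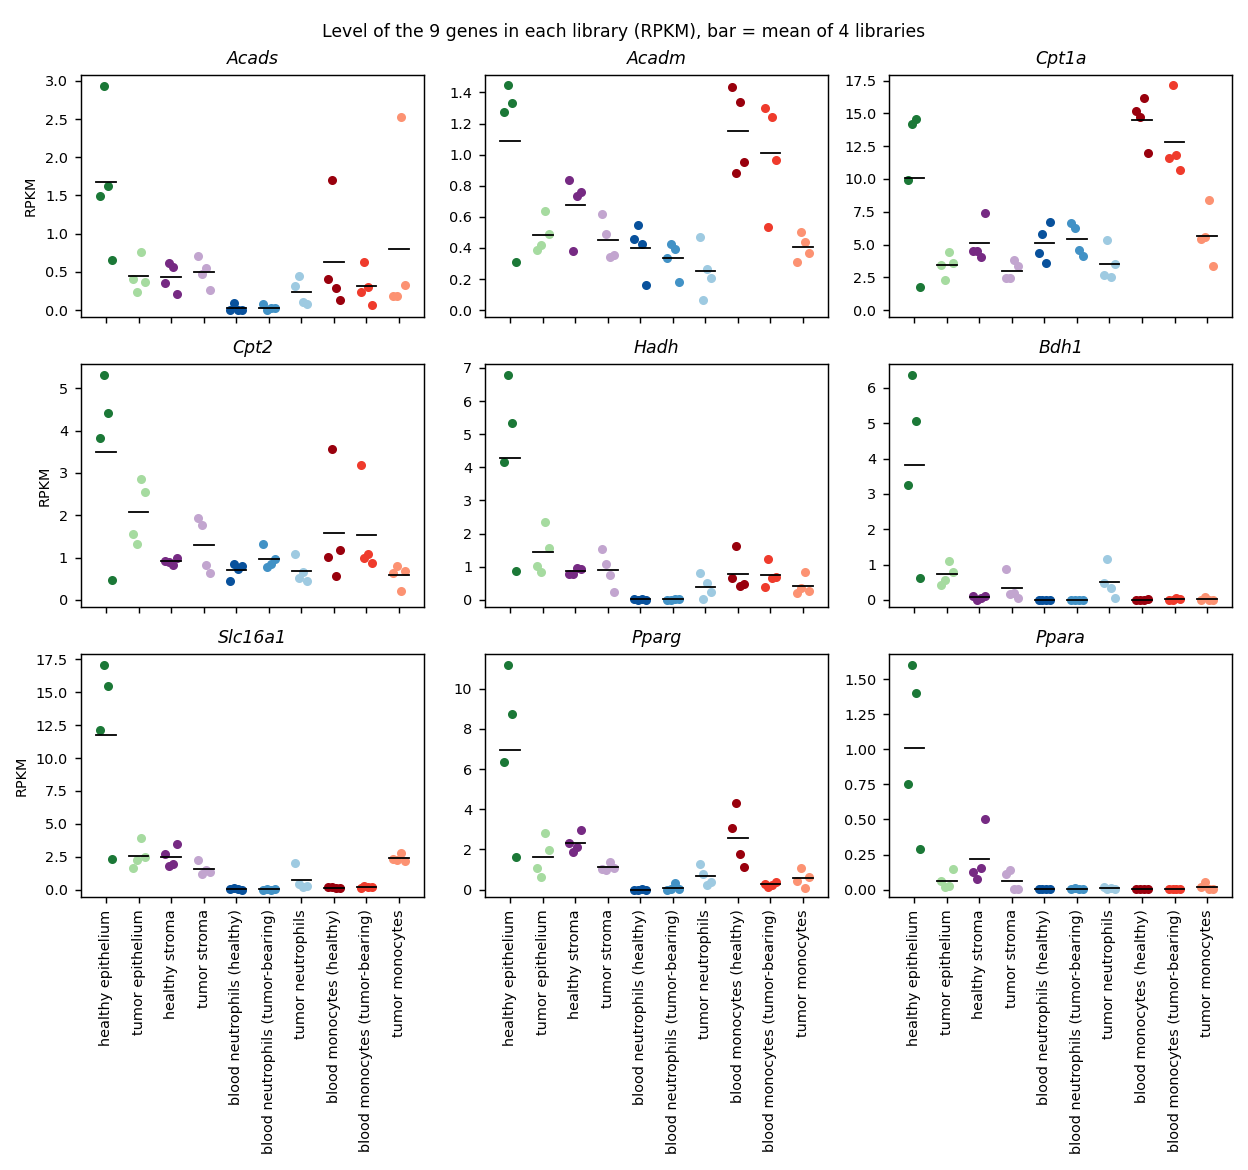
RPKM (vertical axes, linear) of the 9 genes in the 40 libraries, by group. Each point is 1 library and each bar the mean of 4; healthy epithelium is highest for 7 genes, and its lowest point is library 4 in every panel.

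Slc16a1 was the most abundant of the 9 genes in healthy epithelium by mean RPKM, at 11.8 ± 6.62 RPKM (SD, n = 4, as for all levels given with ±, whereas log2 fold changes carry their standard error). It was at 2.59 ± 0.955 in tumor epithelium, 2.46 ± 0.775 in healthy stroma, 2.40 ± 0.269 in tumor monocytes, 1.56 ± 0.480 in tumor stroma and 0.747 ± 0.873 in tumor neutrophils, and at 0.0141 to 0.217 RPKM on average in the 4 groups of blood cells. Bdh1 was highest in the epithelial groups, with 3.82 ± 2.49 in healthy epithelium, 0.720 ± 0.302 in tumor epithelium, 0.513 ± 0.473 in tumor neutrophils, 0.324 ± 0.379 in tumor stroma and 0.0708 ± 0.0557 in healthy stroma. In both groups of blood neutrophils no library held as many as 1 expected count of Bdh1, and in the 3 groups of monocytes its mean was at most 0.0245 RPKM.

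The carnitine shuttle genes were expressed in every group. Cpt1a stood at 14.5 ± 1.79 in healthy blood monocytes, 12.8 ± 2.94 in blood monocytes of tumor-bearing mice, 10.1 ± 5.97 in healthy epithelium, 5.67 ± 2.08 in tumor monocytes and 5.40 ± 1.26 in blood neutrophils of mice with tumors, and at 3.01 to 5.14 RPKM on average in the other 5 groups. It was the only one of the 9 genes with a mean above 3 RPKM in all 10 groups. Cpt2 was lower, with 3.50 ± 2.12 in healthy epithelium, 2.08 ± 0.754 in tumor epithelium, 1.58 ± 1.35 in healthy blood monocytes, 1.53 ± 1.10 in blood monocytes of tumor-bearing mice and 1.29 ± 0.655 in tumor stroma and 0.584 to 0.976 RPKM in the other 5 groups.

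Among the dehydrogenase genes, Hadh and Acads were close to 0 in blood neutrophils and Acadm was not. Hadh had 4.29 ± 2.52 in healthy epithelium, 1.45 ± 0.680 in tumor epithelium, 0.897 ± 0.546 in tumor stroma, 0.871 ± 0.0973 in healthy stroma, 0.791 ± 0.562 in healthy blood monocytes, 0.745 ± 0.347 in blood monocytes of tumor-bearing mice, 0.418 ± 0.286 in tumor monocytes and 0.390 ± 0.350 in tumor neutrophils, but 0.0123 and 0.0125 RPKM on average in the 2 groups of blood neutrophils, with at most 8.23 expected counts in any of those 8 libraries. Acads was likewise low in blood neutrophils, with means of 0.0251 and 0.0341 RPKM, against 1.68 ± 0.942 in healthy epithelium, 0.805 ± 1.15 in tumor monocytes, 0.630 ± 0.720 in healthy blood monocytes, 0.498 ± 0.182 in tumor stroma, 0.444 ± 0.226 in tumor epithelium, 0.440 ± 0.191 in healthy stroma, 0.310 ± 0.234 in blood monocytes of tumor-bearing mice and 0.236 ± 0.175 in tumor neutrophils. The mean of tumor monocytes rested on library 3 at 2.53 RPKM, with the other 3 libraries between 0.180 and 0.328 RPKM. By the ratio of the highest to the lowest group mean Acadm varied least, from 1.15 ± 0.276 in healthy blood monocytes and 1.09 ± 0.525 in healthy epithelium to 0.253 ± 0.166 in tumor neutrophils.

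Of the receptors, Pparg was at 6.97 ± 4.08 in healthy epithelium, 2.55 ± 1.42 in healthy blood monocytes, 2.33 ± 0.473 in healthy stroma, 1.61 ± 0.974 in tumor epithelium, 1.13 ± 0.173 in tumor stroma, 0.676 ± 0.467 in tumor neutrophils, 0.558 ± 0.420 in tumor monocytes and 0.263 ± 0.0952 in blood monocytes of tumor-bearing mice, and in healthy blood neutrophils no library reached 3 expected counts. The 5 adipocyte markers (Adipoq, Plin1, Lep, Retn and Cfd), of a cell type in which Pparg is abundant, had means of at most 0.0702 RPKM in healthy stroma and at most 0.0139 RPKM in healthy and tumor epithelium. Their sum reached 0.226 RPKM in a library of tumor stroma and 1.57 RPKM in a library of tumor neutrophils. The part of adipocytes in the Pparg levels was not tested. Ppara was at 1.01 ± 0.601 in healthy epithelium, 0.216 ± 0.196 in healthy stroma, 0.0635 ± 0.0717 in tumor stroma and 0.0630 ± 0.0590 in tumor epithelium, and its mean was at most 0.0196 RPKM in every group of neutrophils and monocytes, where 4 groups stayed under 3 expected counts in each library.

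The first question was whether tumor epithelium differed from healthy epithelium. All 9 genes fell in tumor epithelium by edgeR's quasi-likelihood test, at Benjamini-Hochberg adjusted p-values from 2.5e-05 to 0.0165 over all 16085 genes tested, of which 12.0% fell and 10.6% rose. Since the 9 genes were chosen with earlier results of these data known, these shares give scale and do not test the set. The falls ran from 2.26-fold for Cpt2 to 22.2-fold for Ppara. The median log2 fold change of the 9 genes was -2.62, beside -0.01 over all genes tested.

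Slc16a1 was at 12.1, 17.1, 15.5 and 2.33 RPKM in healthy and at 1.64, 2.29, 3.91 and 2.52 RPKM in tumor epithelium, libraries 1 to 4 in order. In RPKM the groups overlapped through library 4 of healthy epithelium alone. On the TMM-scaled CPM scale, where that library was closer to the other 3, the values were 247, 256, 227 and 168 in healthy and 27.3, 38.5, 46.1 and 36.0 in tumor epithelium, and every healthy library was above every tumor library. The transcript of this transporter fell 6.37-fold (log2 fold change -2.67 ± 0.20, adjusted p = 2.5e-05, edgeR).

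In the carnitine shuttle, Cpt1a was at 196, 208, 209 and 123 TMM-scaled CPM in healthy and at 55.3, 38, 50.7 and 49.7 in tumor epithelium. The groups did not overlap, and Cpt1a fell 3.96-fold (log2 fold change -1.99 ± 0.21, adjusted p = 1.1e-04, edgeR). Cpt2 had the smallest fall, 2.26-fold (log2 fold change -1.18 ± 0.30, adjusted p = 0.0165, edgeR), and was the only one of the 9 genes whose groups overlapped on this scale, at 42.1, 43.1, 35.0 and 18.2 in healthy against 14, 11.9, 18.3 and 19.8 in tumor epithelium. The 2 tumor libraries 3 and 4 were above library 4 of healthy epithelium. Its call was lost without library 1 of tumor epithelium (adjusted p = 0.0543, edgeR), with Xist as a covariate (adjusted p = 0.232, edgeR) and in 3 other alternatives.

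The dehydrogenases of β-oxidation fell together. Hadh was at 95.6, 114, 88.3 and 70.4 TMM-scaled CPM in healthy and at 19.2, 16.1, 31.4 and 25.2 in tumor epithelium, a 4.21-fold fall (log2 fold change -2.08 ± 0.23, adjusted p = 1.8e-04, edgeR). Acads, which acts on butyryl-CoA, was at 15.6, 22.7, 12.3 and 24.3 and at 3.46, 1.99, 4.64 and 2.73, a 6.13-fold fall (log2 fold change -2.62 ± 0.37, adjusted p = 6.5e-04, edgeR). For both genes every healthy library was above every tumor library. Acadm was at 22.9, 19.2, 17.3 and 19.8 and at 5.68, 6.21, 6.68 and 6.24, with the narrowest spread among tumor libraries relative to the mean, and fell 3.34-fold (log2 fold change -1.74 ± 0.24, adjusted p = 6.3e-04, edgeR). Bdh1, the ketone body enzyme gene, was at 49.1, 70.5, 54.7 and 32.5 and at 5.09, 7.02, 9.64 and 8.43, without overlap, and fell 7.16-fold (log2 fold change -2.84 ± 0.29, adjusted p = 1.0e-04, edgeR).

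Both receptor genes fell. Pparg was at 58.2, 75.4, 57.7 and 52.2 TMM-scaled CPM in healthy and at 7.96, 4.60, 14.9 and 12.7 in tumor epithelium, without overlap (6.39-fold lower, log2 fold change -2.67 ± 0.33, adjusted p = 3.2e-04, edgeR). Ppara had the largest fall of the 9 genes, from 13.3, 20.8, 17.8 and 18.3 to 0.913, 0.249, 0.275 and 1.80 (22.2-fold, log2 fold change -4.47 ± 0.63, adjusted p = 6.4e-04, edgeR), and was the only one without overlap in RPKM too, at 0.750, 1.60, 1.40 and 0.292 RPKM against 0.0640, 0.0154, 0.0267 and 0.146 RPKM. In tumor libraries 2 and 3 it had few counts, with 3.60 the lowest of the group. Its log2 fold change was -5.26 without library 4 of tumor epithelium and between -4.58 and -4.15 without any other single library.

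**Figure D2:**
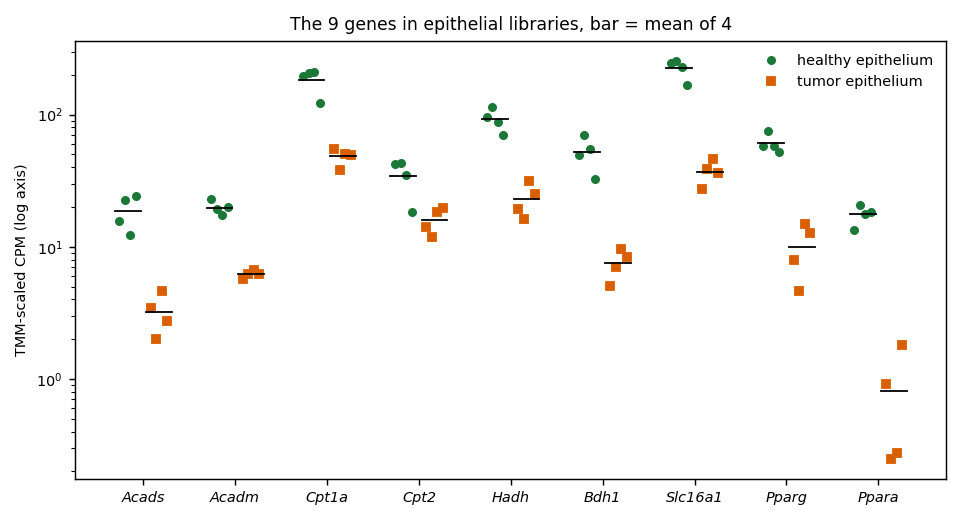
TMM-scaled CPM (log axis) of the 9 genes in the 4 libraries of healthy epithelium (circles) and of tumor epithelium (squares), with the mean as a bar. Healthy libraries lie above all tumor libraries for every gene but Cpt2, whose lowest healthy library (18.2) lies between the tumor libraries (11.9 to 19.8).

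A 2-sided exact permutation test of the TMM-scaled CPM gave p = 0.0286 for 8 of the 9 genes, the smallest p that 70 arrangements of 4 against 4 libraries allow, and p = 0.0857 for Cpt2. The share of all genes that stood apart in this way was not determined, so the count of 8 is a description. In RPKM, where library 4 of healthy epithelium stands low, the same exact test reached that p for Ppara only, and limma on log2(RPKM + 1) called 5 of the 9 genes, where 4.03% of all genes were lower. All 9 genes were called without library 4 of healthy epithelium, a fit for which the share of all genes is not given here. A fit over all 40 libraries called 6, losing Acads, Bdh1 and Cpt2 (adjusted p = 0.0582, 0.0768 and 0.0974 in that order, edgeR), where 6.54% of all genes were lower. Of 10 general epithelial markers, 7 also fell in tumor epithelium by edgeR and none rose, with a median log2 fold change of -1.43, and their part in the falls of the 9 genes was not tested.

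The rest of the pathway was read from 7 lists with 63 further genes, of which 57 could be tested in epithelium. In each list the 3 genes with the smallest adjusted p among those that changed in epithelium are named by rule, apart from genes not reported here, and all other list genes named were chosen after their values were seen. In tumor epithelium 31 of them fell and 2 rose, against 12.0% and 10.6% of all genes tested, and their median log2 fold change was -1.39. The lists too were chosen with earlier results of these data known, so these counts are descriptions and do not test the lists. Of the 12 mitochondrial β-oxidation genes, 9 fell and none rose. They were led by Hadhb (log2 fold change -1.61 ± 0.22, adjusted p = 5.7e-04) and Hadha (log2 fold change -1.32 ± 0.20, adjusted p = 9.0e-04), the subunits of the mitochondrial trifunctional protein, and by Echs1 (log2 fold change -1.82 ± 0.29, adjusted p = 0.00134), the short-chain enoyl-CoA hydratase gene. Among the 3 that did not pass were Acadl, the long-chain dehydrogenase gene, at a log2 fold change of -0.58 ± 0.25, and the isomerase genes Eci1 and Eci2.

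Of 5 ketone body genes 3 fell, 1 did not pass and 1 could not be tested. Acat1, which encodes the mitochondrial acetoacetyl-CoA thiolase, was among those that fell (log2 fold change -1.71 ± 0.20, adjusted p = 2.4e-04, edgeR). Of 14 genes of acyl-CoA activation and the carnitine shuttle, 5 fell and 1 rose. The falls were led by Acss1 (log2 fold change -4.16 ± 0.24, adjusted p = 1.2e-05), the mitochondrial acetyl-CoA synthetase gene, Acss2 (log2 fold change -2.51 ± 0.27, adjusted p = 1.5e-04), its cytosolic counterpart, and Acsm3 (log2 fold change -3.12 ± 0.38, adjusted p = 2.7e-04), a medium-chain acyl-CoA synthetase gene, while the gene that rose was Acsl4 (log2 fold change 1.78 ± 0.24, adjusted p = 4.9e-04), which activates polyunsaturated long-chain fatty acids. Slc25a20, the carnitine-acylcarnitine carrier between Cpt1a and Cpt2, also fell (adjusted p = 0.00413, edgeR).

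Among 8 genes of short-chain fatty acid transport and sensing, Slc5a8 (log2 fold change -5.28 ± 0.60, adjusted p = 1.9e-04), the sodium-coupled butyrate transporter gene, and Abcg2 (log2 fold change -4.57 ± 0.43, adjusted p = 6.5e-05), an efflux pump gene, fell by edgeR, and 1 rose, the lactate exporter gene Slc16a3 (log2 fold change 4.67 ± 0.99, adjusted p = 0.00643). Slc16a3 stayed low in tumor epithelium, at a mean of 0.442 RPKM against 0.0074 RPKM in healthy epithelium. Bsg, the chaperone of MCT1 at the membrane, did not pass, at 0.10 ± 0.16 on the log2 scale, nor did the receptor genes Ffar2 and Hcar2. Of 8 peroxisomal β-oxidation genes 5 fell, among them Abcd3 (log2 fold change -1.51 ± 0.21, adjusted p = 5.4e-04) and Ehhadh (log2 fold change -2.91 ± 0.41, adjusted p = 6.7e-04).

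Of 6 PPAR partners and coactivators 3 fell by edgeR: Rxra (log2 fold change -1.61 ± 0.22, adjusted p = 6.1e-04), Ppard (log2 fold change -1.64 ± 0.23, adjusted p = 6.9e-04) and Ppargc1b (log2 fold change -2.83 ± 0.56, adjusted p = 0.00464). Ppargc1a, the other coactivator gene of that family, was at 0.37 ± 0.24 and did not pass. Of 10 PPAR target genes 4 fell, 3 did not pass and 3 had too few counts to test. Fabp2 (log2 fold change -5.86 ± 0.34, adjusted p = 1.2e-05), the intestinal fatty acid binding protein gene, went from a mean of 84.6 to 2.02 RPKM, followed by Lpl (log2 fold change -4.65 ± 0.73, adjusted p = 0.00116) and Plin2 (log2 fold change -1.39 ± 0.28, adjusted p = 0.00491). Pdk4, another known PPAR target, was at 0.38 ± 0.42.

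**Figure D3:**
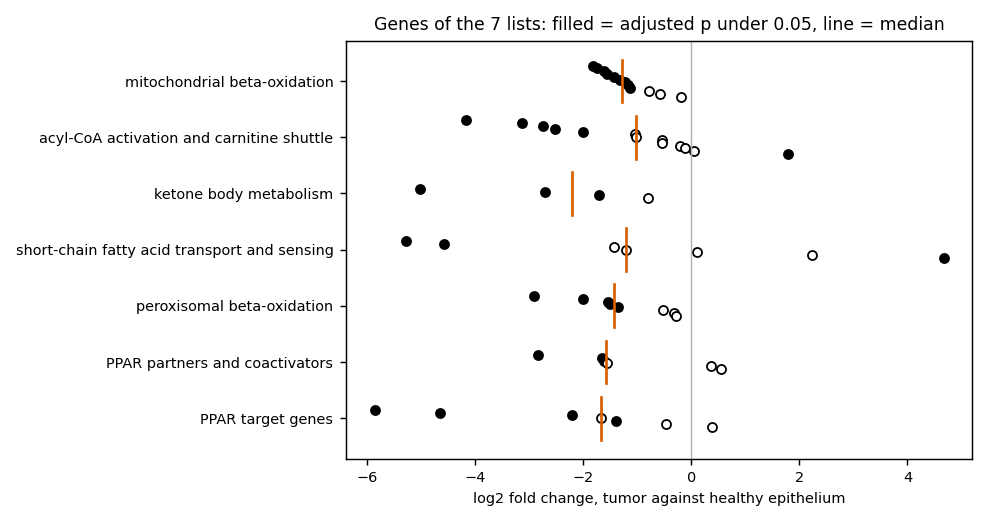
Log2 fold change (horizontal axis) of the tested genes of the 7 pathway lists in tumor against healthy epithelium. Each point is 1 gene, filled at an adjusted p under 0.05, and the vertical line is the list's median; 31 genes fell and 2, Acsl4 and Slc16a3, rose.

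The next question was where the 9 genes stand between epithelium and stroma. In healthy colon all 9 were higher in epithelial than in stromal cells (edgeR, adjusted p from 2.9e-05 to 0.00267), where 15.6% of 18468 genes were higher and 22.5% lower. Bdh1 differed most, at 49.1, 70.5, 54.7 and 32.5 TMM-scaled CPM in epithelium against 0.982, 0, 0.391 and 0.965 in stroma (87.1-fold). Acadm differed least (2.97-fold), at 22.9, 19.2, 17.3 and 19.8 against 8.11, 3.93, 6.61 and 7.92. No healthy epithelial library overlapped a healthy stromal library on this scale in any of the 9 genes, though the share of all genes without overlap was not determined. Of the pathway genes, 37 of 59 tested were higher in epithelium and 6 lower.

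In tumors none of the 9 genes passed the test between epithelial and stromal cells by edgeR, nor by limma-voom or DESeq2, and 1 (Slc16a1) had an unadjusted p under 0.05. Only 0.0294% of 16985 genes were called there in either direction. One animal gave both epithelial library 1 and stromal library 3, and another both epithelial library 2 and stromal library 4. The remaining libraries of this comparison had no partner from the same animal. With the animal as a block 15.7% of all genes were called but none of the 9, of which Cpt2 (log2 fold change 1.24, adjusted p = 0.103) and Bdh1 (2.40, adjusted p = 0.105, both edgeR) came closest. That contrast rests on these pairs alone, which leave little to estimate the spread from, so it is no independent check of the main fit. With stromal libraries 1 and 2 left out, in which epithelial markers stood at 93.3% and 48.4% of their level in tumor epithelium, 5 of the 9 were called (edgeR), all higher in epithelium, where 10.9% of 19784 genes were higher and 18.7% lower. Cpt2 was then higher in tumor epithelium (log2 fold change 1.61, adjusted p = 0.00887), as were Hadh (1.65, adjusted p = 0.0377), Bdh1 (2.61, adjusted p = 0.0136), Slc16a1 (1.00, adjusted p = 0.0207) and Ppara (4.70, adjusted p = 0.0464). The 2 stromal libraries kept, 3 and 4, held markers of blood cells, with the median neutrophil marker at 23.0% and 7.7% of its mean in healthy blood neutrophils and the median leukocyte marker at 11.7% and 14.4% of its mean in healthy blood monocytes. Their 5 erythroid markers summed to 4514 and 1292 RPKM, and the part of these cells in the 5 calls was not tested. In both groups of blood neutrophils the means of Bdh1, Hadh, Slc16a1, Ppara, Acads and Pparg were at most 0.0855 RPKM. Pparg reached 0.313 RPKM in library 3 of blood neutrophils of tumor-bearing mice. Cpt2 averaged 0.703 RPKM in blood neutrophils of healthy and 0.976 RPKM in those of tumor-bearing mice. These levels are descriptions.

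Between tumor and healthy stroma none of the 9 genes passed edgeR's test, where 9.55% of 19081 genes were called in either direction. Limma-voom and DESeq2 called none either, 1 gene had an unadjusted p under 0.05 in edgeR, and limma on log2(RPKM + 1) called Pparg. Pparg was at 2.33, 1.86, 2.14 and 2.97 RPKM in healthy and at 1.03, 1.00, 1.38 and 1.10 RPKM in tumor stroma, so that all healthy libraries were higher (log2 fold change -0.69 ± 0.28, adjusted p = 0.163, edgeR). Bdh1 had the largest difference, at 0.121, 0.00141, 0.0504 and 0.111 RPKM against 0.885, 0.157, 0.198 and 0.0573 RPKM, and rested on library 1 of tumor stroma, the library with the most epithelial markers (log2 fold change 2.55 ± 1.15, adjusted p = 0.212, edgeR). Without tumor libraries 1 and 2 its log2 fold change was 1.11 (adjusted p = 0.673, edgeR). The other 7 genes had log2 fold changes from -1.30 (Ppara) to 0.90 (Cpt2). Of the 57 pathway genes tested, Lpl, the lipoprotein lipase gene (log2 fold change -4.43 ± 0.64, adjusted p = 0.00673), Rxra (log2 fold change -1.26 ± 0.24, adjusted p = 0.0158) and Slc16a7 were lower and Acsl3 and Ucp2 higher in tumor stroma (edgeR). In the same comparison 8 of 8 fibroblast markers and 3 of 5 smooth muscle markers fell, while 4 of 10 epithelial, 2 of 8 neutrophil and 2 of 8 monocyte and macrophage markers rose. None of the 5 leukocyte and 5 erythroid markers passed, all at positive log2 fold changes, and the median log2 fold change was 4.18 for epithelial and 4.62 for neutrophil markers. The part of these cell types in the values of the 9 genes was not tested.

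An interaction term fitted to 16 libraries tested whether the change from healthy to tumor was the same in epithelium and stroma. For 8 of the 9 genes the change was more negative in epithelium past the test (edgeR), where 7.93% of 20901 genes had a more negative and 7.21% a more positive change. The difference was largest for Bdh1 (log2 fold change -5.37 ± 1.14, adjusted p = 0.00525, and -4.17 without library 1 of tumor stroma) and Acads (log2 fold change -3.14 ± 0.59, adjusted p = 0.00218), and smallest among those that passed for Acadm (log2 fold change -1.54 ± 0.41, adjusted p = 0.0196). Ppara did not pass (log2 fold change -3.15 ± 1.38, adjusted p = 0.145). Leaving out tumor stromal libraries 1 and 2, 5 genes still passed, without Acadm, Cpt2 and Hadh, where 6.10% of all genes had a more negative change. A fit over all 40 libraries called 4 of the 9, beside 6.02% of all genes, and limma on log2(RPKM + 1) called 1, Bdh1 (adjusted p = 0.0347), beside 1.94%. Of the 10 epithelial markers 9 had a more negative change in epithelium in the same fit, and all 10 had a positive log2 fold change in stroma, 4 of them past the test. Their part in these differences was not tested.

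In neutrophils the comparison was between tumor and blood of tumor-bearing mice. Of the 9 genes 2 rose in the tumor (edgeR), Slc16a1 and Bdh1, with 12.5% of 13674 genes rising and 5.39% falling, and Hadh and Ppara did not pass the filter on low counts. Library 2 of tumor neutrophils held 4.27 expected counts of Hadh, and no library of either group held more than 3.47 of Ppara or, in blood, more than 8.23 of Hadh. Slc16a1 was at 2.05, 0.427, 0.232 and 0.279 RPKM in tumor neutrophils, while blood libraries reached at most 0.0203 RPKM (log2 fold change 5.52 ± 0.90, adjusted p = 0.00245, edgeR). Tumor library 1, which had the highest Slc16a1, was also the one with epithelial markers at 92.7% of tumor epithelium. Without it the log2 fold change was 4.66 (adjusted p = 0.0042, edgeR), and limma on log2(RPKM + 1) did not call the gene (adjusted p = 0.0924).

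Bdh1 was at 0.486, 1.17, 0.335 and 0.0601 RPKM in tumor neutrophils, with 12 to 231 counts per library, whereas no blood library held a whole count. Set against a floor of 3 counts in each blood library, Bdh1 in the tumor was higher by at least 27.5-fold (adjusted p = 0.00752, edgeR), and by at least 17.1-fold without library 2 of the tumor. It was highest in library 2, where epithelial markers stood at 15.1%, and the call was lost with Xist as a covariate (adjusted p = 0.0677, edgeR) and with limma on log2(RPKM + 1) (adjusted p = 0.0654). Hadh, although not tested by edgeR, was at 0.821, 0.0143, 0.50 and 0.224 RPKM in tumor neutrophils and at most 0.0259 RPKM in blood, with library 2 of the tumor inside the range of blood. Without the filter on low counts Hadh rose (log2 fold change 4.65, adjusted p = 0.0202, edgeR). Acads was above all blood libraries in every tumor library (0.319, 0.442, 0.102 and 0.0807 RPKM) without passing (log2 fold change 3.02 ± 1.08, adjusted p = 0.0791, edgeR), though DESeq2 called it (adjusted p = 0.0178). Pparg did not pass (log2 fold change 3.01 ± 1.37, adjusted p = 0.154, edgeR), at 1.29, 0.773, 0.250 and 0.387 RPKM in the tumor and at 0.00160, 0.00898, 0.313 and 0.0185 RPKM in blood, where library 3 was above library 3 of the tumor. Acadm, Cpt1a and Cpt2 did not pass, at log2 fold changes of -0.50, -0.40 and -0.51. The count of 2 called genes became 4 without library 3 of blood neutrophils, with Hadh and Pparg added (adjusted p = 0.0461 and 0.0161, edgeR), where 12.4% of 15179 genes were called in either direction. It was 4 also without library 2 of tumor neutrophils, with Hadh added and Cpt1a lower (adjusted p = 9.3e-04 and 0.0263, edgeR), but there 29.0% of 14791 genes were called.

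Of 47 pathway genes tested in neutrophils, 12 rose and 2 fell in the tumor, with a median log2 fold change of 0.77, beside 0.11 over all genes. Acsl3, a long-chain acyl-CoA synthetase gene, rose (log2 fold change 5.32 ± 0.63, adjusted p = 7.5e-04, edgeR), as did the coactivator gene Ppargc1a (log2 fold change 6.49 ± 0.90, adjusted p = 0.00114, edgeR) and the lipid droplet gene Plin2 (log2 fold change 2.22 ± 0.41, adjusted p = 0.00447, edgeR). Of the 10 epithelial markers 9 rose in the same comparison, with a median log2 fold change of 7.83, and their part in these rises was not tested.

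In monocytes, Slc16a1 was the only one of the 9 genes that rose from blood to tumor (edgeR), where 10.9% of 15280 genes rose and 6.28% fell. It was at 0.152, 0.278, 0.237 and 0.200 RPKM in blood and at 2.36, 2.25, 2.78 and 2.18 RPKM in tumor monocytes, a 13.2-fold rise without overlap (log2 fold change 3.72 ± 0.35, adjusted p = 6.0e-05, edgeR). All 4 tumor libraries were near the mean of tumor epithelium (2.59 RPKM). Epithelial markers stood at 1.2%, 20.8%, 3.7% and 3.5% of their level in tumor epithelium, libraries 1 to 4 in order, and their part in the rise was not tested. The call held in all 9 alternatives and without each of the 8 libraries. Bdh1 was close to 0 in all of these libraries, at most 0.0960 RPKM, and was not tested, nor was Ppara. Acads did not pass (log2 fold change 1.70 ± 1.00, adjusted p = 0.283, edgeR), and without library 3 of tumor monocytes its log2 fold change was -0.23. Hadh (log2 fold change -0.56 ± 0.56, adjusted p = 0.542) and Pparg (log2 fold change 1.28 ± 0.70, adjusted p = 0.246, both edgeR) did not pass either.

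Cpt1a, Acadm and Cpt2 had lower values in all tumor monocytes than in any library of blood monocytes of tumor-bearing mice, on the RPKM scale, and did not pass the test. The share of all genes that stood apart in this way was not determined, so the separation is a description. On the TMM-scaled CPM scale only Cpt1a stood apart, since Acadm reached 6.87 in tumor against a lowest value of 6.66 in blood monocytes and Cpt2 reached 6.69 against 6.50. Cpt1a was at 11.6, 17.2, 11.8 and 10.7 RPKM in blood and at 5.42, 5.55, 8.39 and 3.33 RPKM in tumor monocytes (log2 fold change -0.90 ± 0.32, adjusted p = 0.0779, edgeR). Acadm was at 1.30, 0.533, 1.24 and 0.964 RPKM and at 0.313, 0.505, 0.436 and 0.367 RPKM (log2 fold change -1.05 ± 0.41, adjusted p = 0.104, edgeR). Cpt2 was at 3.19, 0.988, 1.09 and 0.876 RPKM and at 0.631, 0.804, 0.210 and 0.691 RPKM (log2 fold change -1.13 ± 0.55, adjusted p = 0.19, edgeR). Limma-voom called Cpt1a (adjusted p = 0.0401) and DESeq2 called Acadm (adjusted p = 0.0248), each with the same direction. Acadm also passed without library 2 of blood monocytes (adjusted p = 0.0487, edgeR) and Cpt1a without library 3 of tumor monocytes (adjusted p = 0.0191, edgeR). Of 51 pathway genes tested, 11 rose and 7 fell. The rises included the PPAR target genes Plin2 (log2 fold change 1.68 ± 0.32, adjusted p = 0.00479), Cd36, a fatty acid receptor gene (log2 fold change 3.01 ± 0.56, adjusted p = 0.00455), and Pdk4 (log2 fold change 4.00 ± 0.98, adjusted p = 0.0181, all edgeR), and the falls included those of the peroxisomal genes Hsd17b4 (log2 fold change -1.92 ± 0.32, adjusted p = 0.00258) and Crot. Of the marker lists, 4 of the 6 tested epithelial genes rose and 5 of 5 erythroid genes fell in the same comparison, and their part in these differences was not tested.

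A like interaction term compared the difference of tumor from blood in the 2 myeloid cell types. The fit took the libraries as independent, though several animals gave both cell types. Hadh was the only one of the 9 genes to pass, with a more positive change in neutrophils (log2 fold change 5.19 ± 1.21, adjusted p = 0.0227, edgeR), where 2.73% of 17465 genes passed in that direction. It lost the call in 4 of 16 fits that left out 1 library each and in limma on log2(RPKM + 1), and its log2 fold change was 5.86 without library 4 of blood neutrophils and 5.87 without library 3 of tumor monocytes. All 10 epithelial markers also had a more positive change in neutrophils, with a median log2 fold change of 2.32, and 1 of them passed. Hadh was highest in library 1 of tumor neutrophils, where epithelial markers stood at 92.7%, and without that library it passed at a log2 fold change of 4.74 (adjusted p = 0.0436, edgeR). Slc16a1, which rose in both cell types, did not pass (log2 fold change 1.63 ± 0.80, adjusted p = 0.256, edgeR), nor did Bdh1 (log2 fold change 10.16 ± 2.81, adjusted p = 0.0561, edgeR).

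In blood, tumor-bearing and healthy mice were compared for each cell type. In neutrophils Acadm, Cpt1a and Cpt2 had enough counts to be tested, and none passed edgeR, limma-voom or DESeq2 or reached an unadjusted p under 0.05, while 6.52% of 13360 genes were called in either direction. Cpt1a, the most abundant of the 9 genes in these cells, was at 4.39, 5.78, 3.63 and 6.75 RPKM in healthy and at 6.68, 6.26, 4.55 and 4.12 RPKM in tumor-bearing mice. In monocytes Pparg fell (edgeR), where 0.124% of 15313 genes fell. It was at 3.05, 4.30, 1.75 and 1.11 RPKM in healthy and at 0.297, 0.154, 0.224 and 0.375 RPKM in tumor-bearing mice, with no overlap (8.99-fold, log2 fold change -3.17 ± 0.51, adjusted p = 0.0458, edgeR). This call lay close to the threshold and was lost in 6 of 8 fits without 1 library (adjusted p up to 0.202, edgeR), in limma-voom (adjusted p = 0.103), with Xist as a covariate (adjusted p = 0.0657) and in 4 other alternatives, while the log2 fold change stayed between -3.40 and -2.75 without single libraries. Of the pathway genes none passed in either blood cell type by edgeR, of 43 tested in neutrophils and 50 in monocytes, and 8 and 3 of them had an unadjusted p under 0.05.

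**Figure D4:**
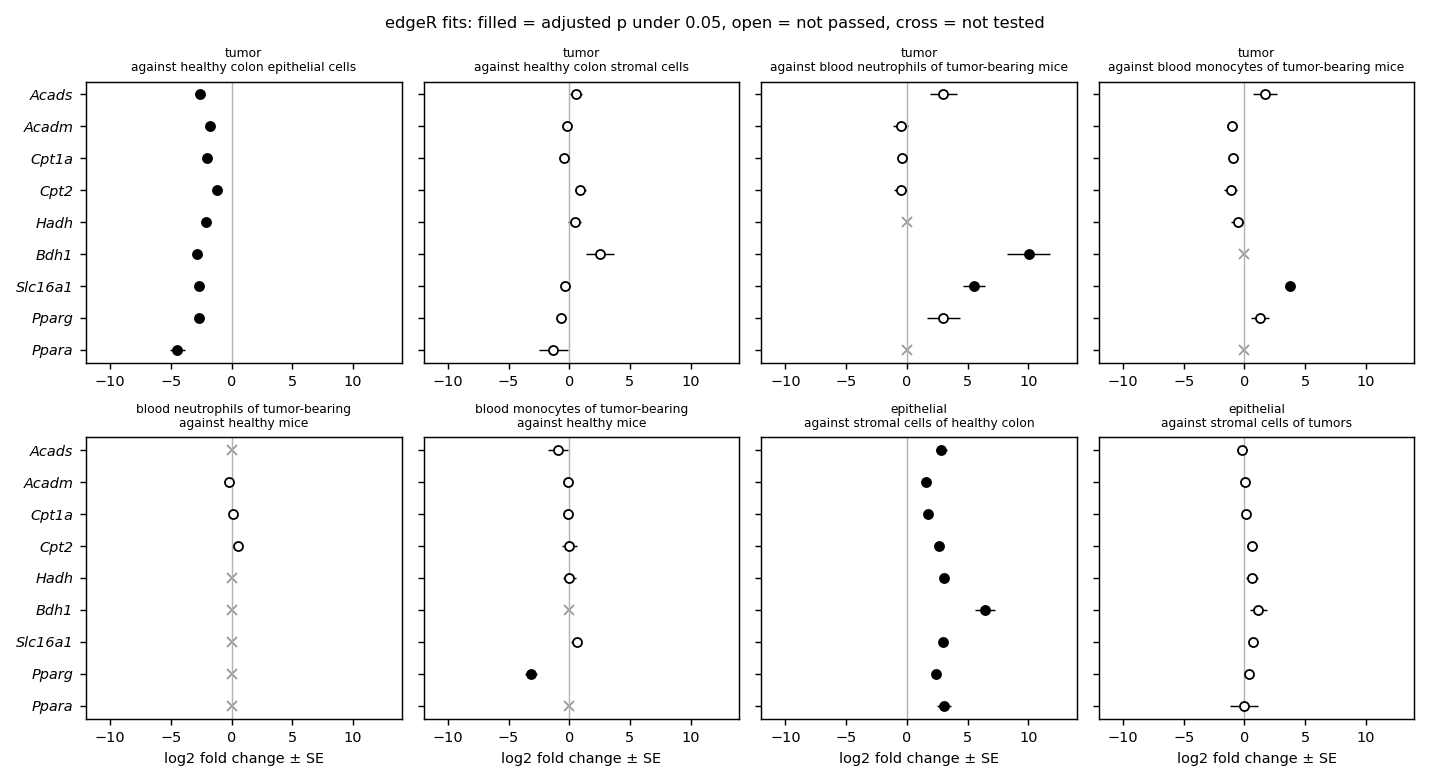
Log2 fold change with its standard error (horizontal axes) of the 9 genes in the 8 comparisons, filled at an adjusted p under 0.05 (edgeR), open where the test was not passed and a cross where a gene had too few counts. All 9 are filled in tumor against healthy epithelium, to the left, and in healthy epithelium against stroma, to the right; Slc16a1 is filled to the right in both tumor myeloid cell types, Bdh1 to the right in neutrophils and Pparg to the left in blood monocytes.

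Across the 10 groups, the Pearson correlation of log2(mean RPKM + 1) between pairs of the 9 genes ran from -0.07 (Cpt1a with Slc16a1) to 0.90 (Hadh with Pparg), with a median of 0.74 over 36 pairs. The points share libraries and the high level of healthy epithelium, so these values are descriptions. Among 4891 genes with a mean of at least 5 RPKM in at least 1 group, the pattern most like that of Bdh1 was that of Slc44a4 (r = 0.998), followed by Gcnt3 and Myo15b, and most like Ppara were Fabp6 (0.993), Akr1c14 and Clca1. Acads was most like Gfpt1 (0.980), Slc26a2 and Slc4a7, Hadh most like 4931406C07Rik (0.976), Suclg2 and Slc35a1, Cpt2 most like Slc35a3 (0.938), Ndufb9 and Mpp6, and Pparg most like Calml4 (0.936), Lclat1 and Gne. All of these have their highest mean in healthy epithelium, as do the genes most like Slc16a1, which are Gm6762 (0.979), Gm5540 and Acsf2. The genes most like Acadm were Acaa2 (0.932), Tep1 and Rer1, with their highest means in healthy blood monocytes, and those most like Cpt1a were Iqgap2 (0.920), Naip6 and Camk1d, with their highest means in blood monocytes.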

How the data were processed

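RNA of sorted cells was amplified (NuGEN Ovation V2), made into TruSeq Nano libraries and sequenced on an Illumina HiSeq. The authors mapped reads to mm10 with Bowtie 2 and quantified genes with HTSstation, and the deposited tables hold expected counts (estimated counts per gene, not whole numbers) and RPKM computed by the authors. The annotation release and the handling of strand and of reads with several matches are not given in the sources used here. Amplified reads carry no molecular identifiers, so counting error alone understates the error.

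Groups came from the sample labels. Titles name the animals, some of which gave libraries of several cell types, and p-values measure the spread between these libraries. Expected counts were rounded to whole numbers and tested with edgeR 4.0.16 (robust quasi-likelihood, TMM, filterByExpr) in R 4.3.3, with 8 libraries per comparison and 16 per interaction. Genes with a Benjamini-Hochberg adjusted p under 0.05 over all genes tested were said to rise or fall. Single values were tested by exact 2-sided permutation (Python 3.11.15, SciPy 1.17.1). The fits were tested on simulated data. The 9 genes and all lists were chosen with earlier results of these data known. From each pathway list the rule named the 3 genes with the smallest adjusted p among those changed in epithelium, and for likeness the 3 genes with the highest correlation. A few genes of the lists are counted but not reported here by name.

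Alternatives were limma-voom (limma 3.58.1), DESeq2 1.42.0, its RLE size factors, no filter on low counts, a log2 fold threshold of 1.5, mitochondrial genes left out, a replicate block, 1 model for all 40 libraries, limma on log2(RPKM + 1), TMM-scaled CPM for levels, animals as a block, tumor stromal libraries 1 and 2 left out, and each library left out. A fit with log2(Xist RPKM + 1) as a covariate was added after seeing the data.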

Additional observations from a re-analysis of the deposited data

Results flagged for a closer look

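In 10 of 90 groups of 4 libraries the most extreme value stood apart from the other 3 by more than Dixon's 95% limit. Chance alone passes that limit in about 1 of 20 groups of independent, normally distributed values. The RPKM values were not transformed, some lie near 0 and the genes share libraries, so the count is a description. The single high libraries were at 0.0886 RPKM for Acads in healthy blood neutrophils, 2.53 RPKM for Acads and 0.0960 RPKM for Bdh1 in tumor monocytes, 7.37 RPKM for Cpt1a in healthy stroma, 0.885 RPKM for Bdh1 in tumor stroma and 2.05 RPKM for Slc16a1 in tumor neutrophils. In blood of tumor-bearing mice they were at 17.2 RPKM for Cpt1a (library 2) and 3.19 RPKM for Cpt2 (library 1) in monocytes, and at 0.313 RPKM for Pparg in neutrophils. The only single low library was library 4 of healthy epithelium for Acadm, at 0.311 RPKM, the library with 83.9% mitochondrial counts. The high Bdh1 and Slc16a1 values of tumor stroma and tumor neutrophils were in library 1 of each, where epithelial markers stood at 93.3% and 92.7% of their level in tumor epithelium, and their part in these values was not tested.

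For 8 of the 9 genes the change from healthy to tumor differed between epithelium and stroma in the interaction test (edgeR). The log2 differences were -3.14 for Acads, -1.54 for Acadm, -1.56 for Cpt1a, -2.07 for Cpt2, -2.50 for Hadh, -5.37 for Bdh1, -2.35 for Slc16a1 and -1.98 for Pparg. For Hadh the difference of tumor from blood was larger in neutrophils than in monocytes by 5.19 on the log2 scale.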

How the results depend on the processing

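Leaving out single libraries kept direction and side of the threshold in 712 of the values given per gene, weakened 11, strengthened 7 and turned 22, and the other alternatives did so in 652, 37, 18 and 22. No value that passed the test turned under any alternative. Where a value changed, the cause was not tested unless named. Groups of 4 libraries limit every test, and genes with few counts in both groups, among them Bdh1 and Ppara in monocytes, did not pass the filter and were not tested. DESeq2 gave no adjusted p for Acads in tumor against blood monocytes.

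With limma on log2(RPKM + 1), which compresses low genes, the called genes among the 9 were 5 in tumor against healthy epithelium, 1 in stroma, 0 in tumor against blood neutrophils, 2 in tumor against blood monocytes, 0 in blood monocytes, 1 for epithelium against stroma and 0 for neutrophils against monocytes as interactions. One model over 40 libraries gave 5 in neutrophils and 3 in monocytes of the tumor against blood, 1 and 0 in blood neutrophils and monocytes, 4 for the first and 2 for the second interaction. Limma-voom and DESeq2 gave 2 each in tumor monocytes and 2 each for the second interaction, and in blood monocytes limma-voom, no filter and the Xist covariate gave 0. Without tumor stromal libraries 1 and 2 the count was 5 in tumor epithelium against stroma and 5 for the first interaction. Neighbouring groups stood apart in 9 of 81 pairs on TMM-scaled CPM, and in 1 on RPKM. Leaving out 1 library gave 2 to 4 genes in neutrophils and 1 to 2 in monocytes of the tumor against blood, 0 to 1 in blood monocytes, 0 to 1 in tumor epithelium against stroma and 0 to 2 for the second interaction. The counts of this section, with those of the replicate block below, stand without the share of all genes called in the same fit. That share differed between fits, so the counts describe only how the calls moved.

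In no comparison did all same-numbered pairs of libraries correlate above 0.1. Library 1 of tumor and of blood monocytes, from the same animal, correlated at -0.106. Library 4 of healthy epithelium and of healthy stroma, also from the same animal, correlated at -0.0083. The correlation therefore cannot tell which libraries are paired, and shared animals were read from the titles. With the replicate number as a block, 8 of 9 genes were called in epithelium and 0 in blood monocytes, Cpt2 turned to 0.20 there, and the counts were as reported in the other 8 comparisons.

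Turned log2 fold changes, none called before, were in stroma 0.080 for Acadm (Xist covariate), -0.051 for Cpt2 and -0.55 for Hadh (stromal libraries 1 and 2 left out) and -0.027 for Hadh (limma on RPKM). In blood monocytes they were 0.30 (limma-voom), 0.0030 (mitochondrial genes left out), 0.014 (limma on RPKM) and 0.017 (Xist covariate) for Cpt2 and -0.011 for Hadh (limma on RPKM). In tumor epithelium against stroma they were 0.20 for Acads (stromal libraries 1 and 2 left out), -0.087 for Cpt1a and -0.35 for Pparg (animal as a block), and for Ppara 1.13 (limma-voom), 0.0046 (no filter), 1.2e-04 (limma on RPKM), 4.70 (stromal libraries 1 and 2 left out), 0.029 (Xist covariate) and 3.97 (animal as a block). In the interactions they were 1.59 for Ppara (stromal libraries 1 and 2 left out), -0.057 for Acads and -0.80 for Slc16a1 (limma on RPKM). Ranges that crossed 0 when single libraries were left out were -0.23 to 2.33 for Acads in tumor against blood monocytes, negative only without library 3 of tumor monocytes, and -0.44 to 2.9e-04 for Acadm in blood neutrophils. In blood monocytes they were -1.54 to 0.34 for Acads, -0.22 to 0.12 for Acadm, -0.25 to 0.0072 for Cpt1a, -0.57 to 0.81 for Cpt2 and -0.34 to 0.68 for Hadh. In tumor epithelium against stroma they were -0.052 to 0.23 for Acadm and -0.79 to 0.84 for Ppara, and for neutrophils against monocytes -0.23 to 0.66 for Cpt1a and -0.091 to 0.68 for Cpt2.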
